A study of Mus musculus with 460 samples.

Results

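A set of 9 genes of the MHC class I and interferon system was followed in single cells from mouse lung tumours: H2-K1, H2-D1, B2m, Tap1, Tapbp, Nlrc5, Ifitm3, Oasl2 and Irf1. They were chosen by name, and all 9 of 9 were measured among 48440 genes in 460 cells. The cells were labelled as CAFs, cancer-associated fibroblasts, taken as tCAFs from mice with lung adenocarcinoma, and every cell shares this source. There is 1 group and no untreated or normal fibroblast. Since no animal, culture or plate is named in the labels, the cells were treated as a single sample. No test, standard error or p-value between sets of cells is therefore given, and every interval is a 95% interval that covers counting error only.

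The members were described over all cells and then in a split by Rgs5, a regulator of G protein signalling that marks pericytes, and Pdgfra, a receptor for platelet-derived growth factor that marks fibroblasts. The first set, called Rgs5-high cells here, held the 44.1% of cells with more Rgs5 than Pdgfra counts (exact Clopper-Pearson interval 39.5 to 48.8), and the rest, called other cells, formed the second. No cell had a tie. Rgs5 stood at 4620 CPM (counts per 1000000 summed counts) in Rgs5-high cells and at 367.9 CPM in the other cells, and Pdgfra at 408.6 CPM in Rgs5-high cells and 1726 CPM in the other cells. These values follow from the rule. A second split separated the 25.9% of cells with under 30 CPM of Sftpc, the alveolar type II cell gene for surfactant protein C, from the cells at or above that level.

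The cells held a median of 88701 counts, with 76944 in Rgs5-high cells and 96654 in the other cells. The pericyte markers, Rgs5 among them, summed to 14470 CPM in Rgs5-high cells and 3640 CPM in the other cells, and the fibroblast markers, Pdgfra among them, to 5717 CPM and 11751 CPM. Without the 2 genes that define the split, the pericyte list summed to 9850.1 CPM and 3272 CPM and the fibroblast list to 5308 CPM and 10024.5 CPM. Every cell had at least 2 markers from both lists, so that count does not separate one cell type from the other. Markers of other lineages were present too. The leukocyte list summed to 220.1 CPM in Rgs5-high cells and 51.5 CPM in the other cells, with medians per cell of 26.2 and 19.02 CPM and ranges of 0 to 4746 and 0 to 2214 CPM. All 10 of its 10 markers were counted. The epithelial list summed to 1441 CPM and 873 CPM, the endothelial list to 78.4 and 63.8 CPM and the mesothelial list to 101.7 and 42.8 CPM. Their part in the results was not tested, but values without the cells that had 2 or more leukocyte markers are given beside the members below.

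MHC class I molecules display peptides from inside the cell to cytotoxic T cells. Each consists of a polymorphic heavy chain, encoded in the mouse by genes such as H2-K1 and H2-D1, and the invariant light chain beta-2 microglobulin, encoded by B2m. Peptides made by the proteasome enter the endoplasmic reticulum through the TAP transporter, of which Tap1 encodes a subunit, and tapasin, the product of Tapbp, tethers the heavy chain to that transporter. Nlrc5 encodes the transactivator of class I genes. Interferons raise the transcription of this whole set and of antiviral genes. Irf1 encodes an interferon regulatory factor that is induced by interferon gamma and by NF-kB, Ifitm3 encodes a membrane protein that blocks the entry of many viruses, and Oasl2 belongs to the oligoadenylate synthetase family.

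The promoters of the class I genes are shown because the heavy chains moved together from cell to cell (below). Each sequence runs from 250 bases before to 50 bases after the annotated start, from RefSeq on GRCm38.p6, and the table used listed 8 of the 9 members. Capitals mark matches, on either strand, to 4 motifs that were picked after the sequences had been read: the kappa B core GGGATTCCC, the interferon regulatory factor core AANNGAAA, the cyclic AMP response core TGACG and the Y box CCAAT.

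H2-K1 (chr17:34000298-34000597, minus strand): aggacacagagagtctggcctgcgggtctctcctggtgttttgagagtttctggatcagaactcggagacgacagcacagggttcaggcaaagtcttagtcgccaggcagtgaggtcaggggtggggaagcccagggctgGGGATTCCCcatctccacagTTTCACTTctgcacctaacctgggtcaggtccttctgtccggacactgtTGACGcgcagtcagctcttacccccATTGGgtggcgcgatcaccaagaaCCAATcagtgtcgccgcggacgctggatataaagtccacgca
H2-D1 (chr17:35262844-35263143, plus strand): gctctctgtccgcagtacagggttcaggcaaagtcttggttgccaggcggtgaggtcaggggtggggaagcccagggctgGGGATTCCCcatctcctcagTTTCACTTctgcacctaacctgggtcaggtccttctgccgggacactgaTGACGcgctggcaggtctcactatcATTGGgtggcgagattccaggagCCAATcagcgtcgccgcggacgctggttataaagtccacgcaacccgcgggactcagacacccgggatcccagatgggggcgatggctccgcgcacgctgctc
B2m (chr2:122147437-122147736, plus strand): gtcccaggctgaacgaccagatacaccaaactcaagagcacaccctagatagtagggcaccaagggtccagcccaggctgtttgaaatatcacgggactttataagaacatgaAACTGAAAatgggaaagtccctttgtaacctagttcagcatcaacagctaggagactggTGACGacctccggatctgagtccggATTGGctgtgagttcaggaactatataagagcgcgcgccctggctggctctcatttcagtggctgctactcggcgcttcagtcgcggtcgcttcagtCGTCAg

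The H2-K1 and H2-D1 promoters carried the same 4 motifs in the same order. In H2-K1 they lay at positions -110 (kappa B), -90 (interferon regulatory factor core), -41 (cyclic AMP response core) and -16 (Y box) from the start, and in H2-D1 at -170, -150, -101 and -76. Each had a second Y box further on, at 9 in H2-K1 and at -53 in H2-D1. With the windows shifted by 60 bases against each other, 73.3% of the 240 aligned bases were identical. The kappa B core occurred in 0.353% of all 32851 promoters of this length. The interferon regulatory factor core was found in 23.9%, the cyclic AMP response core in 20.8% and the Y box in 37.4%. Because the motifs were picked after these sequences had been read, the shares do not measure enrichment in the members. The B2m promoter held the interferon regulatory factor core at -137, the cyclic AMP response core at -78 and the Y box at -53. A second cyclic AMP response core lay at 45. No exact match to the kappa B letters was found. Other forms of the kappa B site were not searched for, so the B2m window was not shown to lack one. The motifs did not overlap one another in these windows. A match describes letters and does not show that a factor was bound.

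The promoters of the 3 interferon genes are given as well. Over all cells these genes reached no correlation of 0.2 with a class I gene among the members (below). Ifitm3 did so with 2 class I peptide loading genes outside the members, Psmb10 (0.30) and Psme2 (0.22). Some pairs of members reached 0.2 in smaller sets of cells, such as B2m with Ifitm3 in Rgs5-high cells (0.21). Any link between promoter letters and these correlations was not tested.

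Ifitm3 (chr7:141010695-141010994, minus strand): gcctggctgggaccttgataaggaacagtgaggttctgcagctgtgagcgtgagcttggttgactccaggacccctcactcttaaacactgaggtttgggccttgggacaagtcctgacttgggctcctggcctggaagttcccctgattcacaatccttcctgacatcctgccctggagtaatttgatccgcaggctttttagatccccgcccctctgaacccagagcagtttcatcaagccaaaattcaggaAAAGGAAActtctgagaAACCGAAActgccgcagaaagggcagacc
Oasl2 (chr5:114896684-114896983, plus strand): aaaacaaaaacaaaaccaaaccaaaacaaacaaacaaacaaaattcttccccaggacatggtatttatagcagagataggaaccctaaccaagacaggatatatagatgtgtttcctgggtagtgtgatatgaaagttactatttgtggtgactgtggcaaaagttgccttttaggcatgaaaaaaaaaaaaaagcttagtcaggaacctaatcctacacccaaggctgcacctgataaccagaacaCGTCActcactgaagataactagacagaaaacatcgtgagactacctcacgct
Irf1 (chr11:53769764-53770063, plus strand): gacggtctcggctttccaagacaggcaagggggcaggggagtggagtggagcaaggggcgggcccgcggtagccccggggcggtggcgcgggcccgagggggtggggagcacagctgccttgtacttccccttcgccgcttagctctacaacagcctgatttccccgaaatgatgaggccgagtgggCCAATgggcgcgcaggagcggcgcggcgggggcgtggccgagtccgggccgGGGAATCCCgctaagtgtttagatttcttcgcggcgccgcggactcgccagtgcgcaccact

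Ifitm3 held the interferon regulatory factor core at positions 5 and 22 after its start. Oasl2 held only the cyclic AMP response core, at -3. Irf1 held the kappa B core at -12, on the opposite strand, with a Y box at -63. Thus 3 of the 8 listed promoters (H2-K1, H2-D1 and Irf1) had the exact kappa B letters that were searched for. Tap1 held the cyclic AMP response core at -86 and a Y box at -222, and Tapbp had Y boxes at -248 and -165.

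The classical heavy chains and their light chain were present in nearly every cell. H2-K1 (chr17:33996017-34000347, minus strand, mm10) reached 421.5 CPM over all cells, with an exact Poisson interval of 415.3 to 427.7, and had a count in 98.9% of cells. Its level per cell had a median of 279.98 CPM, with quartiles at 136.1 and 541 CPM and a range of 0 to 3250 CPM. H2-D1 (chr17:35262730-35267499, plus strand) reached 346.7 CPM (341.1 to 352.3) and was counted in 98.5% of cells, with a median of 230.3 CPM and quartiles at 114.99 and 425.7 CPM. B2m (chr2:122147686-122153083, plus strand) reached 390.3 CPM (384.4 to 396.25) and was counted in 99.6% of cells, with a median of 326.5 CPM and quartiles at 222.8 and 485 CPM. The light chain was more even over the cells than the heavy chains. The 10% of cells with the highest value held 23.9% of the CPM of B2m, against 32.3% for H2-K1 and 34.9% for H2-D1.

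The loading genes divided into one that was general and one that was sparse. Tapbp (chr17:33915899-33929292, plus strand) reached 333.4 CPM (327.97 to 338.96), had a count in 98.3% of cells and had a median of 289.97 CPM per cell. Tap1 (chr17:34187553-34197225, plus strand) reached 12.1 CPM (11.04 to 13.2) and was counted in 33.5% of cells (29.2 to 37.995). Nlrc5 (chr8:94434356-94527272, plus strand) was the least abundant member. Its summed level was 4.41 CPM (3.80 to 5.09), with a count in 11.7% of cells (8.94 to 15.04), and the highest 10% of cells held 97.3% of its CPM. A cell without a count of Tap1 or Nlrc5 was not shown to lack the transcript at this depth.

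The 3 interferon genes differed in level and in evenness. Ifitm3 (chr7:141009586-141010770, minus strand) was the only member with a count in all 460 cells, at 1093 CPM (1083 to 1103), with a median of 1078 CPM per cell and a range of 47.7 to 2867 CPM. Oasl2 (chr5:114896936-114912234, plus strand) reached 135.8 CPM (132.3 to 139.3) and was counted in 87.2% of cells, with quartiles per cell at 21.4 and 203.9 CPM. Irf1 (chr11:53770014-53778374, plus strand) reached 116.5 CPM (113.3 to 119.8) and was counted in 86.5% of cells, with quartiles at 20.6 and 146.1 CPM. Both were concentrated in fewer cells than Ifitm3. The top 10% of cells held 37.7% of the CPM of Oasl2 and 38.4% of that of Irf1, against 18.5% for Ifitm3.

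Per kilobase of annotated exon, the order of the summed levels ran from Ifitm3 at 1612 CPM per kb through B2m at 453.8, H2-K1 at 143.5, H2-D1 at 134.4, Tapbp at 91.9, Irf1 at 29.3, Oasl2 at 21.3 and Tap1 at 2.20 to Nlrc5 at 0.519 CPM per kb. With 1 sample, the spread of this order over samples cannot be given. The values are molecular barcode counts, and whether these grow with exon length was not tested. Without the division H2-K1, at 421.5 CPM, stood above B2m, at 390.3 CPM. In 50% of cells or more, 7 of the 9 members were counted, and each of the 460 cells had counts for at least 3 members. Most cells had 7 members (52.4% of cells) or 8 (25.9%), and 18 cells had all 9. The level of the heavy chains is uncertain in one respect. Of the 50-base windows in its exons, H2-K1 shared 9.63% and H2-D1 12.8% with other genes, and the labels do not give the H2 haplotype of the mice, while the reference is that of C57BL/6J. Tapbp shared 23.2% of its windows with other genes, and 20.3% of its windows were shared with the antisense gene Gm19412, and Tap1 overlapped Psmb9 on the opposite strand over 3.87% of its exon bases. The counting is not stated to use strand, so reads of overlapping genes on opposite strands cannot be told apart.

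**Figure D1:**
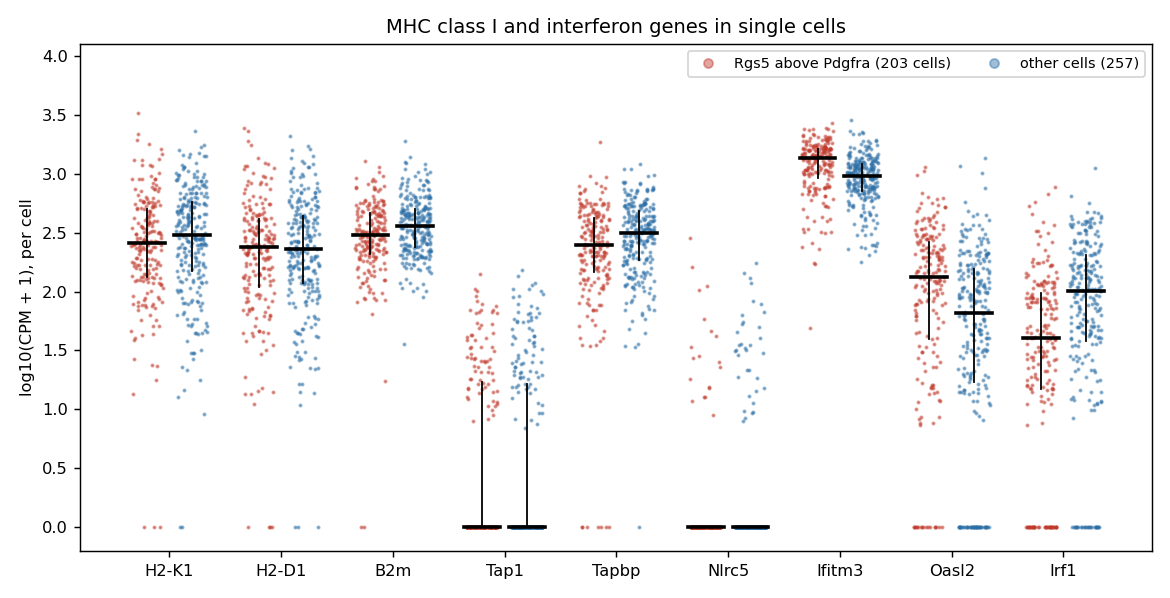
Level of each member in single cells, as log10(CPM + 1), for Rgs5-high cells (red, left) and other cells (blue, right). Each point is a cell, the thick bar is the median and the thin line spans the quartiles. Irf1 lies lower and Oasl2 and Ifitm3 lie higher in the red cells, while Tap1 and Nlrc5 have medians of 0 in both sets.

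Between Rgs5-high and other cells Oasl2 was higher and Irf1 lower, and no class I gene among the members passed the limit. A gene was called at a ratio of at least 1.5-fold between summed CPM values, among genes with at least 5 CPM, which 8 members met. Oasl2 was called higher in Rgs5-high cells, where 9.21% of the 12014 genes tested were called higher. Irf1 was called lower, where 10.7% were called lower. The 8 members thus had about the calls that genes in general had. The median ratio of the 8 members was 1.01, and that of all genes was 1.02.

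Oasl2 stood at 175.5 CPM (169.3 to 181.9) in Rgs5-high cells and at 109.5 CPM (105.5 to 113.7) in the other cells, a ratio of 1.60. Its level per cell ran from 0 over a median of 130.8 to 1147 CPM in Rgs5-high cells, and from 0 over a median of 64.3 to 1357 CPM in the other cells. The ranges overlapped over almost their whole width, and the medians differed. A count was present in 91.6% of Rgs5-high cells and 83.7% of the other cells. After each cell had been thinned to 56586 counts, with shallower cells left out, these shares were 91.8% and 80.7%. In cells with fewer than 2 leukocyte markers, where 8.77% of genes were called higher and 13.2% lower, Oasl2 stood at 201.6 CPM in Rgs5-high cells and 107.6 CPM in the other cells, a ratio of 1.87.

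Irf1 ran the other way. It stood at 77.96 CPM (73.8 to 82.3) in Rgs5-high cells and at 141.9 CPM (137.4 to 146.6) in the other cells, a ratio of 0.55. Its level per cell ran from 0 over a median of 39.4 to 773 CPM in Rgs5-high cells, and from 0 over a median of 99.9 to 1119 CPM in the other cells. The 2 sets again overlapped, with the upper quartile of the Rgs5-high cells (96.1 CPM) below the median of the others. Counts were present in 81.8% of Rgs5-high cells and 90.3% of the other cells, or 80.1% and 88.9% after thinning. With fewer than 2 leukocyte markers the values were 84.8 CPM in Rgs5-high cells and 131.5 CPM in the other cells (ratio 0.64).

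Ifitm3 stood at 1253 CPM (1236 to 1270.2) in Rgs5-high cells and 987 CPM (975 to 999.5) in the other cells, a ratio of 1.27, under the limit of 1.5. Its median per cell was 1352 CPM in Rgs5-high cells (range 47.7 to 2669) and 957 CPM in the other cells (range 176.5 to 2867). The lower quartile of the Rgs5-high cells, at 919.6 CPM, lay just below the median of the others. The ratio was also 1.27 in cells with fewer than 2 leukocyte markers.

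Among the class I genes the ratio depended on the cells that were counted. H2-K1 stood at 427.03 CPM in Rgs5-high cells and 417.8 CPM in the other cells (ratio 1.02), although its median per cell was lower in Rgs5-high cells, at 257.6 CPM against 298.8 CPM. H2-D1 stood at 376.8 CPM and 326.8 CPM (ratio 1.15), with medians of 238.1 and 227.3 CPM. B2m stood at 360.4 CPM and 409.99 CPM (0.88) and Tapbp at 314.2 CPM and 346.1 CPM (0.91). Without the cells that had 2 or more leukocyte markers, H2-K1 stood at 290.4 CPM in Rgs5-high cells and 411.5 CPM in the other cells (0.71), and H2-D1 at 256.4 CPM and 329.6 CPM (0.78). Both ratios thus depended on whether the cells with leukocyte markers were counted. The part of leukocyte markers in these values was not tested further. The corresponding ratios of B2m and Tapbp were 0.83 and 0.81.

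The 2 low members had overlapping counting intervals in this split. Tap1 stood at 12.03 CPM (10.4 to 13.8) in Rgs5-high cells and 12.1 CPM (10.8 to 13.5) in the other cells, and was counted in 35.5% and 31.9% of them. Nlrc5 stood at 3.66 CPM (2.80 to 4.69) in Rgs5-high cells and 4.91 CPM (4.09 to 5.85) in the other cells, and was not among the genes tested. With fewer than 2 leukocyte markers Tap1 stood at 11.5 CPM in Rgs5-high cells and 13.3 CPM in the other cells, and Nlrc5 at 3.20 CPM and 4.09 CPM.

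**Figure D2:**
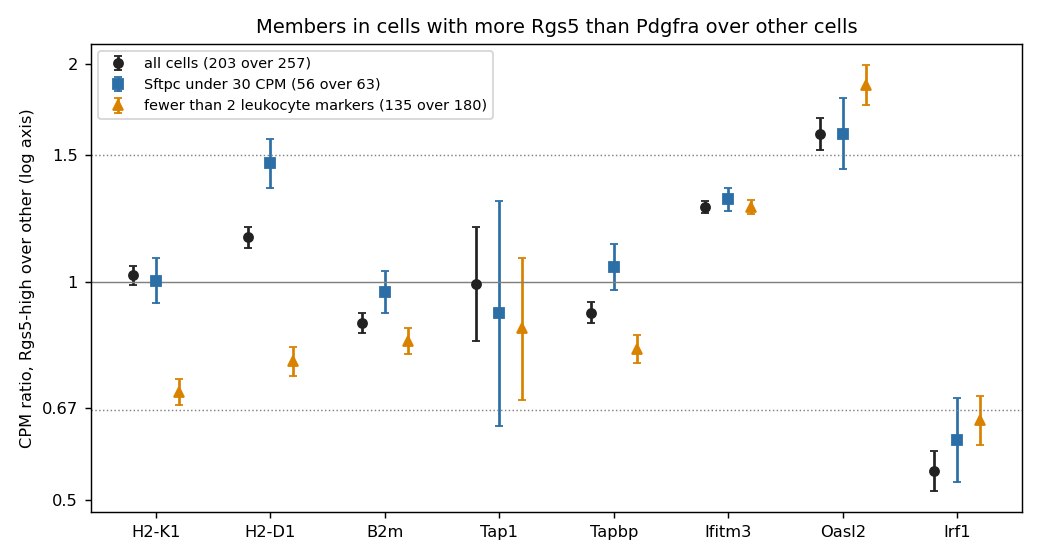
Ratio of summed CPM in Rgs5-high cells over other cells (log axis) for the 8 members with at least 5 CPM, in all cells, in cells with Sftpc under 30 CPM and in cells with fewer than 2 leukocyte markers. Bars are counting intervals of the ratio, and dotted lines mark 1.5-fold in either direction. Oasl2 stays above 1.5 and Irf1 below its lower line in the 3 sets of cells, whereas H2-K1 and H2-D1 shift with the set.

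The pattern was then followed in the cells with Sftpc under 30 CPM. In them the epithelial markers summed to 12.8 CPM, against 1414 CPM in the cells with more Sftpc, and Epcam, Cdh1 and Nkx2-1 were at 0. Endothelial markers summed to 13.4 CPM against 85.96 CPM, with Kdr, Tie1 and Cldn5 at 0, and mesothelial markers to 19.6 CPM against 79.8 CPM, with Msln and Lrrn4 at 0. Leukocyte markers were still there, at 94.02 CPM against 125.8 CPM.

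In these Sftpc-low cells, Oasl2 stood at 169.98 CPM in 56 Rgs5-high cells and 105.965 CPM in 63 other cells, again a ratio of 1.60. Irf1 stood at 78.5 CPM and 129.7 CPM, a ratio of 0.61. Per cell the sets were closer than over all cells, with Irf1 medians of 60.5 CPM in the Rgs5-high cells and 72.1 CPM in the others, maxima of 450.7 and 1119 CPM, and counts in 82.2% and 85.5% of cells after thinning. Among all 11759 genes with at least 5 CPM in these cells, 12.2% were called higher and 17.1% lower. Ifitm3 stood at 1434 CPM in the Rgs5-high cells and 1102 CPM in the others (ratio 1.30). H2-K1 had a ratio of 1.0 (324.8 and 323.4 CPM) and H2-D1 one of 1.46 (327.3 and 224.3 CPM), with H2-D1 medians per cell of 245.4 CPM in Rgs5-high cells and 166.4 CPM in the others. The leukocyte markers summed to as much as 4537 CPM in a cell among the 56 Rgs5-high cells, against at most 168.5 CPM in the 63 other cells. Nlrc5 gave 3 counts, all in 1 cell, in the Rgs5-high cells and 22 counts in the others, or 0.73 CPM (0.15 to 2.14) and 4.01 CPM (2.51 to 6.07), a ratio of 0.18 with a counting interval of 0.035 to 0.61.

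No member was called between the Sftpc-low cells and the cells with more Sftpc, where 2.53% of all genes were called higher and 7.67% lower. H2-K1 stood at 323.997 CPM in Sftpc-low cells and 449.7 CPM in the rest (ratio 0.72), and H2-D1 at 268.4 CPM and 369.4 CPM (0.73). These 2 heavy chains were closest to the limit. B2m had a ratio of 0.96, Tapbp 0.93, Irf1 0.91, Oasl2 0.98 and Ifitm3 1.19. Nlrc5, below the 5 CPM minimum, stood at 2.61 CPM (1.69 to 3.85) in Sftpc-low cells and 4.94 CPM (4.21 to 5.75) in the rest. Over the class II list the difference was far larger. Cd74, the class II invariant chain, stood at 1.98 CPM in Sftpc-low cells and 88.99 CPM in the rest, and 6 of 7 tested class II genes were called lower, with a median ratio of 0.07.

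Across all cells H2-K1, H2-D1, B2m and Tapbp rose and fell together, and over all cells no interferon gene reached 0.2 with them. Spearman correlations of log-scaled values over 460 cells are given as descriptions, since the cells share 1 sample. H2-K1 and H2-D1 had the highest value among the 36 pairs, at 0.60. H2-K1 correlated with B2m at 0.42 and with Tapbp at 0.38, H2-D1 with B2m at 0.37 and with Tapbp at 0.36, and B2m with Tapbp at 0.29. All 6 pairs among these 4 genes therefore reached 0.2. The 2 other pairs that did so were Ifitm3 with Oasl2 (0.26) and H2-K1 with Nlrc5 (0.21).

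Set against the whole table, 8 of 36 pairs (22.2%) reached 0.2, where 0.572% of the pairs of all 10431 genes detected in at least 25% of cells did so. Among the 5 members detected in at least 90% of cells the share was 6 of 10 pairs, where 2.59% of the pairs of such genes reached it. Between H2-K1 and H2-D1, 4.08% of the 50-base windows of H2-K1 and 5.44% of those of H2-D1 were shared, and the part of such reads in their correlation was not tested. B2m shared no window with another gene. Totals moved little with these genes, with correlations between total counts and level of 0.11 for H2-K1, 0.01 for H2-D1, 0.05 for B2m and 0.08 for Tapbp.

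Of the 6 pairs among H2-K1, H2-D1, B2m and Tapbp, 5 stayed above 0.2 on both sides of each split, and B2m with Tapbp did not. H2-K1 with H2-D1 had 0.55 in Rgs5-high cells and 0.63 in the other cells, 0.54 in Sftpc-low cells and 0.56 in cells with fewer than 2 leukocyte markers. H2-K1 with B2m had 0.40 in Rgs5-high cells and 0.43 in the other cells, and 0.35 in Sftpc-low cells. B2m with Tapbp was weaker in Sftpc-low cells, at 0.14, and stood at -0.07 in the 56 of them that were Rgs5-high. Ifitm3 with Oasl2 had 0.25 in Rgs5-high cells, 0.11 in the other cells and 0.26 in Sftpc-low cells. H2-K1 with Nlrc5 had 0.09 in Sftpc-low cells, where Nlrc5 stood at 2.61 CPM, so this pair did not reach 0.2 there. B2m with Ifitm3, at 0.09 over all cells, had 0.21 in Rgs5-high cells and 0.28 in those that were also Sftpc-low. In the 91 cells with fewer than 2 markers of each other lineage, a set added after seeing the data, H2-D1 had 0.18 with Tapbp and 0.20 with B2m, and H2-K1 had 0.21 with Irf1.

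**Figure D3:**
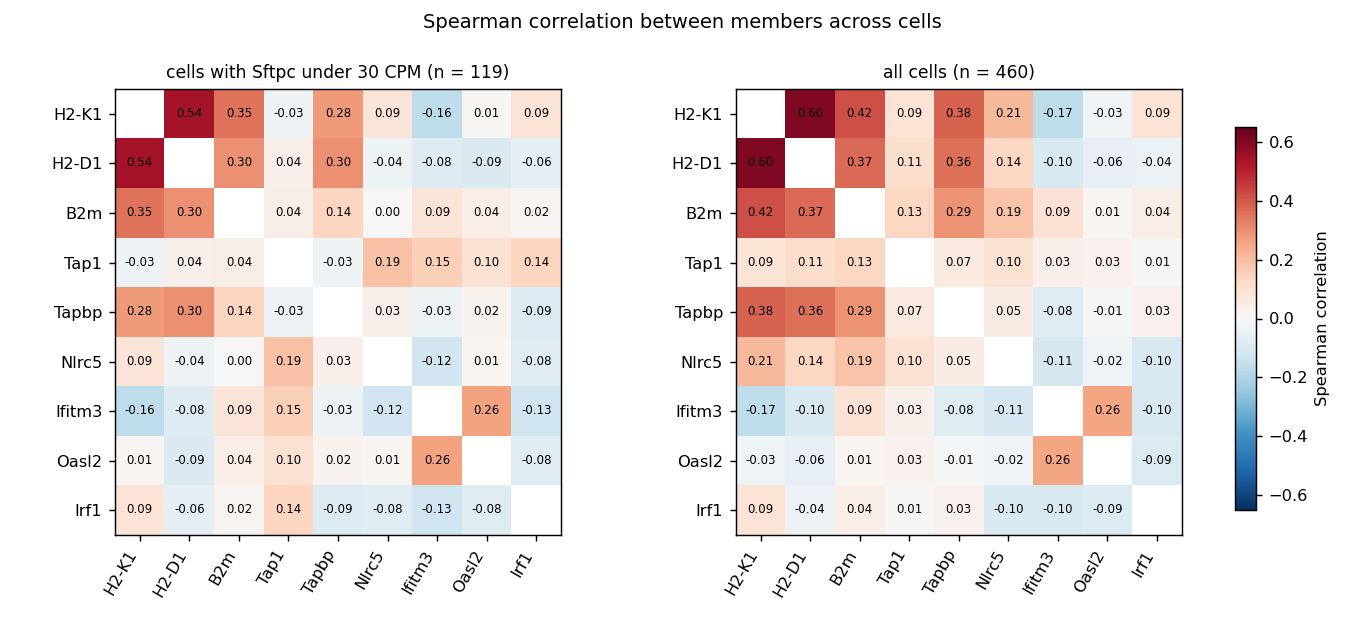
Spearman correlation between each pair of members across cells, in cells with Sftpc under 30 CPM (left) and in all 460 cells (right), on log-scaled counts. H2-K1, H2-D1, B2m and Tapbp form a block of positive values in both panels, with 0.54 and 0.60 for H2-K1 with H2-D1, and Irf1 has no value of 0.2 or more with another member.

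Over all cells the interferon regulatory factor stood apart from the genes it is known to regulate. Irf1 correlated with H2-K1 at 0.09, with B2m at 0.04, with H2-D1 at -0.04 and with Oasl2 at -0.09. Ifitm3 correlated with H2-K1 at -0.17 and with H2-D1 at -0.10, both weak, and within Rgs5-high cells at -0.11 and -0.004. Ifitm3 correlated with 9 pericyte markers at a median of 0.39 (0.33 to 0.47). With 7 fibroblast markers its median was -0.29, with values from -0.37 to 0.18. The lists include Rgs5 and Pdgfra, which define the split, so these medians are no separate evidence on it. H2-K1 had medians of -0.14 and 0.14. Tap1 had no correlation of 0.2 with any other member. A weak value for a gene counted in 33.5% of cells says little.

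The genes closest to each member were searched among 9108 named genes detected in at least 25% of cells. For Irf1 they were Nfkbia (0.56), which encodes an inhibitor of NF-kB that NF-kB itself induces, Gadd45b (0.52), a stress-inducible gene, and Csrnp1 (0.52), an immediate early type nuclear factor. The value with Nfkbia was 0.29 in Rgs5-high cells, 0.65 in the other cells and 0.51 in Sftpc-low cells, and 0.54 after thinning. Irf1 itself correlated with total counts at 0.25, the highest value among the members. Over 9 tested NF-kB target genes its median correlation was 0.27, over 12 immediate early genes 0.35 and over 15 other interferon-stimulated genes 0.015.

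The heavy chains had each other as closest partners. Beyond the members, H2-D1 was followed by other class I genes and H2-K1 by genes outside the class I region. H2-D1 was closest to H2-Q10 (0.40) and H2-Q4 (0.38), nonclassical class I genes, then to Ace (0.35), the gene for angiotensin-converting enzyme. H2-Q4 shared 36.4% and H2-Q10 19.1% of its windows with other genes, so these values are uncertain. H2-K1 was closest to Ace (0.39), to the ferritin gene Fth1 (0.36) and to Slco2a1 (0.33), a prostaglandin transporter. Ace with H2-K1 stood at 0.23 in Rgs5-high cells, 0.49 in the other cells and 0.29 in Sftpc-low cells. B2m was closest to Igfbp7 (0.36), Mgp (0.36) and Sod3 (0.33), which encode secreted proteins of the matrix and the extracellular space. Tapbp was closest to Fth1, Timp2 and Gaa, each at 0.36.

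Among the interferon genes Ifitm3 was closest to its neighbours in the family, Ifitm2 (0.58) and Ifitm1 (0.53), and to Ndufa4l2 (0.50), which pericytes are known to express. Of the windows of Ifitm3 10.02% were shared with other genes, and of those of Ifitm2 48.5%. Oasl2 had no partner above Lhfp (0.31), Pdzd2 (0.30) and Mapt (0.30). Nlrc5 was closest to the serine protease inhibitor genes Serpina3g (0.24) and Serpina3m (0.19) and to Lgi2 (0.19). Tap1 was closest to Rnf213 (0.18), Plxdc1 (0.17) and Zfp868 (0.16). No gene function is read from these ranks.

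**Figure D4:**
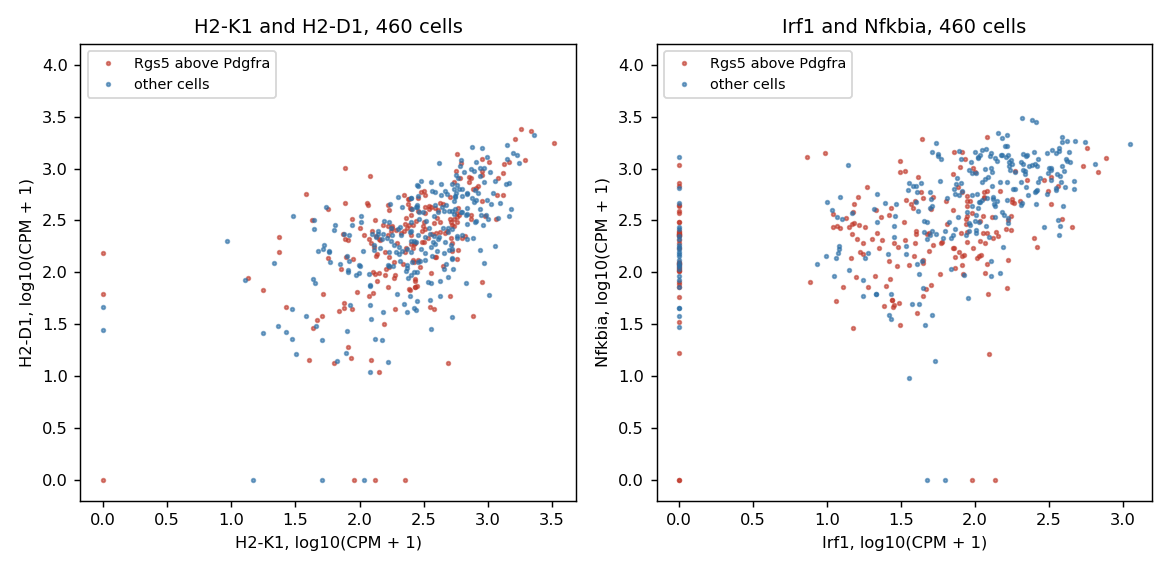
Level of H2-D1 against H2-K1 (left) and of Nfkbia against Irf1 (right), as log10(CPM + 1), with 1 point for each of 460 cells, red for Rgs5-high cells and blue for other cells. H2-K1 and H2-D1 rise together in both colours (Spearman 0.55 and 0.63), and Irf1 with Nfkbia is tighter in the other cells (0.29 and 0.65).

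The wider class I pathway was measured in lists of its known genes. Of 19 class I heavy chain genes all 19 had a count, and 12 reached 5 CPM. H2-K1 and H2-D1 were followed by Mr1, which presents microbial vitamin metabolites, at 138.25 CPM and by Fcgrt, the neonatal Fc receptor chain, at 101.2 CPM. The nonclassical genes H2-Q4 and H2-T22 had 37.97 and 37.3 CPM. Between Rgs5-high and other cells, 0 of the 12 were called higher and 2 lower, Mr1 at 105.3 CPM against 160.05 CPM (ratio 0.66) and Cd1d1, a lipid-presenting molecule, at 4.01 against 6.12 CPM (0.66). The median ratio was 1.02. Of all 12014 genes tested, 9.21% were called higher and 10.7% lower, so these few calls are not read as a trait of heavy chains. In cells with fewer than 2 leukocyte markers Mr1 was not called (0.68), Cd1d1 was under 5 CPM, and H2-Q4 (0.60), H2-Q7 (0.63) and the iron regulator gene Hfe (0.66) were called lower. In Sftpc-low cells Mr1 (0.66) and Hfe (0.41) were called lower and H2-Q6 (1.95) and H2-Q7 (3.18) higher, and Cd1d1 was under 5 CPM. Of all genes, 8.77% were called higher and 13.2% lower in the cells with fewer than 2 leukocyte markers. In Sftpc-low cells these shares were 12.2% and 17.1%.

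Of 15 loading genes, 13 were tested. The chaperones Calr (calreticulin, 840.2 CPM) and Canx (calnexin, 491 CPM) and the disulfide isomerase Pdia3 (552 CPM) led the list and had ratios of 0.84 to 0.90. Psmb10, a subunit of the immunoproteasome, stood at 38.5 CPM in Rgs5-high cells and 25.5 CPM in the other cells (1.51), and Psme2, a subunit of the proteasome activator, at 46.4 and 28.96 CPM (1.60). Both were called higher, where 9.21% of all genes tested were, and no loading gene was called lower over all cells. Neither call held in cells with fewer than 2 leukocyte markers (1.29 and 1.47) or in Sftpc-low cells (1.28 and 1.22). The aminopeptidase gene Erap1 was called lower in those 2 sets of cells (0.56 and 0.54). It stood just inside the limit over all cells, at 0.67. Tap2 was called higher in Rgs5-high cells in the same 2 sets. Tapbpl was called lower in cells with fewer than 2 leukocyte markers. Tap1 had company in being low, with Tap2 at 7.60 CPM and the immunoproteasome subunit Psmb9, its opposite-strand neighbour, at 1.92 CPM.

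Class II genes had low levels with many zeros. All 7 tested class II genes were called higher in Rgs5-high cells, Cd74, H2-Aa, H2-Ab1, H2-Eb1, H2-DMa, H2-DMb1 and Ctss, where 9.21% of all genes were. Their median ratio was 3.62, with Cd74 at 108.6 CPM against 43.5 CPM. The cells differed less at the median, with the class II list at 70.6 CPM in Rgs5-high and 56.2 CPM in other cells. The highest single cells reached 12607.5 and 3634 CPM. After thinning, Cd74 was counted in 56.7% and 54.3% of cells. In cells with fewer than 2 leukocyte markers, 3 of 5 were called higher, where 8.77% of all genes were. Cd74 stood there at 55.04 CPM against 35.7 CPM. In Sftpc-low cells 2 class II genes reached 5 CPM, and 1, Ctss, was called higher, where 12.2% of all genes were. Thinned Cd74 went the other way there, at 0.39 CPM in Rgs5-high and 2.89 CPM in other cells. It was counted in only 1 and 3 of those cells.

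Interferon genes themselves were almost uncounted, while their receptors were present in most cells. Of 9 interferon ligand genes 8 had no count, among them Ifnb1 and Ifng, and Ifnk had 1 count. A count of 0 in the table allows up to 0.0704 CPM, from a floor of 3 counts. The receptors were present, with Ifnar1 at 172.5 CPM in 98.9% of cells, Ifnar2 at 157.1 CPM, Ifngr1 at 140.3 CPM and Ifngr2 at 102.25 CPM. The kinase genes Jak1 (407.6 CPM) and Jak2 (198.1 CPM) and the factor gene Stat3 (268.8 CPM) led this list, and Stat2, which carries interferon signals, had 43.1 CPM. Of its 14 tested genes 0 were called in either direction, with ratios of 0.70 for Socs3 to 1.43 for Ifngr2. Ifngr2 was called higher in cells with fewer than 2 leukocyte markers (1.52). Within the cells with more Sftpc, where 10.7% of genes were called higher and 10.8% lower, Ifngr2 was called higher (1.51) and Socs3 lower (0.64).

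Most strongly interferon-induced antiviral genes were near the floor, so Oasl2 stood out among them by level. Of 36 interferon-stimulated genes 21 were tested. Lgals3bp, a secreted binding protein, was counted in every cell at 534 CPM and was followed by Oasl2 at 135.8 CPM and Sp100 at 106.3 CPM. By contrast Isg15 had 1.29 CPM in 6.09% of cells, Ifit1 5.59 CPM in 8.91%, Mx1 0.28 CPM, Rsad2 0.26 CPM and Usp18 2.28 CPM, and the relatives Oas1a, Oas2, Oas3 and Oasl1 had between 0.49 and 3.36 CPM. Of the 9 genes Isg15, Ifit1, Ifit3, Mx1, Oas1a, Oas2, Oas3, Rsad2 and Usp18, at least 1 was counted in 28.7% of cells. At least 3 were counted in 11 cells (2.39%, interval 1.20 to 4.24), of which 4 were Rgs5-high and 7 were not, and 0 of these 11 were Sftpc-low.

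Between Rgs5-high and other cells, 2 of the 21 tested interferon-stimulated genes were called higher, Oasl2 and Xaf1 (40.5 against 26.9 CPM, ratio 1.502), and 4 lower. Those were Eif2ak2, the gene for the kinase PKR (0.61), Zbp1, a nucleic acid sensor (0.43), Ifit1 (0.48) and Ifit3 (0.58). In Sftpc-low cells Oasl2 was the one gene called higher, with Xaf1 at 1.45, and Eif2ak2 (0.35), Zbp1 (0.47) and Ifi27 (0.60) were called lower, while Ifit1 and Ifit3 were under 5 CPM. With fewer than 2 leukocyte markers Xaf1 (1.74) was called higher and Eif2ak2 (0.51), Zbp1 (0.35), Ifit3 (0.35) and Isg20 (0.63) lower, and Ifit1 was under 5 CPM. The median ratio was 0.94. Among all 12014 genes tested over all cells, 9.21% were called higher and 10.7% lower. The 2 of 21 called higher were near that share. Most of the list did not share the higher level of Oasl2, as most genes in general did not. Among 16 tested genes of the interferon gamma response 3 were called higher and 4 lower. The guanylate-binding protein genes Gbp7 and Gbp9 each had a ratio of 1.52, and Cd274, which encodes PD-L1, stood at 23.6 CPM against 5.5 CPM (4.3). The call of Cd274 did not hold in cells with fewer than 2 leukocyte markers. There it stood at 1.98 CPM in Rgs5-high cells and 3.17 CPM in the other cells. The Cd274 call held in Sftpc-low cells, where Gbp4 and Gbp5 were called lower. Irgm2 was called lower in cells with fewer than 2 leukocyte markers. Icam1, an adhesion molecule that NF-kB also induces, stood at 196.4 CPM against 345.7 CPM (0.57), Cxcl10 at 12.03 against 22.5 CPM (0.53), Igtp had a ratio of 0.63 and Irgm1 one of 0.65. Gbp7 and Irgm1 were called neither in Sftpc-low cells (1.41 and 0.76) nor in cells with fewer than 2 leukocyte markers (1.40 and 0.70), whereas Gbp9, Icam1, Cxcl10 and Igtp were called in both.

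**Figure D5:**
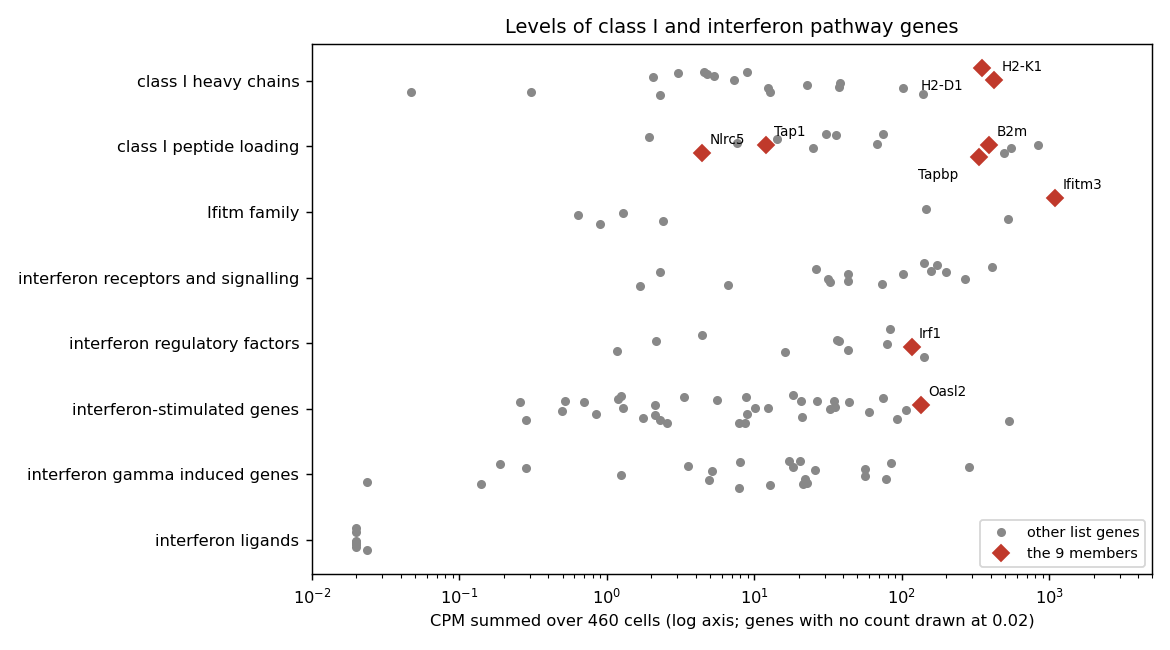
Summed CPM over 460 cells (log axis) of each gene in 8 lists of the class I and interferon pathways, 1 row for each list, with the 9 members as red diamonds. Genes with no count are drawn at 0.02. Ifitm3 at 1093 CPM lies at the right end and the 9 interferon ligand genes at the left end, while Nlrc5 and Tap1 lie far to the left of Tapbp and B2m.

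Within the Ifitm family and the interferon regulatory factors, a relative of each member differed more than the member itself. Ifitm1 stood at 249.3 CPM in Rgs5-high cells and 78.97 CPM in the other cells (ratio 3.16), against 1.27 for Ifitm3 and 1.07 for Ifitm2. The Ifitm1 ratio was 3.12 in Sftpc-low cells and 2.78 in cells with fewer than 2 leukocyte markers. Irf8, a regulatory factor best known from myeloid and B cells, stood at 139.3 CPM in Rgs5-high cells and 39.95 CPM in the other cells (3.49). Over all cells it was the one factor of 8 tested that was called higher, and Irf1 the one called lower. Of all genes tested, 9.21% were called higher and 10.7% lower. In Sftpc-low cells Irf3 was called higher too. The Irf8 ratio was 3.49 in Sftpc-low cells and 3.16 in cells with fewer than 2 leukocyte markers, where it stood at 128.9 CPM and 40.8 CPM. Irf2 (83.3 CPM), Irf3, Irf7 and Irf9 had ratios of 0.81 to 1.37 over all cells.

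NF-kB targets, among them Nfkbia, were lower in Rgs5-high cells. Of 9 tested NF-kB target genes 6 were called lower in Rgs5-high cells and 0 higher, with a median ratio of 0.56. The 6 were Tnfaip3, Nfkbia, Nfkbiz, Nfkb1, Birc3 and Icam1. Of all 12014 genes tested, 10.7% were called lower and 9.21% higher. Tnfaip3, which encodes the NF-kB inhibitor A20, stood at 239.3 CPM in Rgs5-high cells and 742 CPM in the other cells (0.32), Nfkbia at 383.5 CPM and 688 CPM (0.56) and Nfkbiz at 483 CPM and 904 CPM (0.53). In Sftpc-low cells 6 of 10 were called lower, where 17.1% of all genes were. In cells with fewer than 2 leukocyte markers 7 of 10 were, where 13.2% of all genes were. The immediate early genes, which also rise with cell handling, had 1 of 12 called lower, Egr2 at 0.52, and a median ratio of 0.85. Fos went the other way from that median, at 2188 CPM in Rgs5-high cells and 2058 CPM in the other cells. Within the cells with more Sftpc, Egr2 and Nr4a1 were called lower, and in Sftpc-low cells no immediate early gene was called. The part of cell handling in the Irf1 values was not tested. The last 2 lists gave no calls over all cells. Of 10 nucleic acid sensor genes 0 were called, with Tmem173, the gene for STING, at 179.2 CPM, Ddx58 at 74.6 CPM and Myd88 at 43.8 CPM. Of 7 genes for factors of the class I and class II promoters, such as Creb1 (127.1 CPM), Nfya (76.2 CPM) and Rfx5 (30.2 CPM), also 0 were called. In Sftpc-low cells the sensor genes Mb21d1 and Tlr7 and the regulator gene Rfxap were called higher in Rgs5-high cells, and none of the 3 was called in cells with fewer than 2 leukocyte markers.

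Against the cells with more Sftpc, several interferon-stimulated genes were lower in Sftpc-low cells although Oasl2 was level. Of all 12014 genes tested, 7.67% were called lower and 2.53% higher in this comparison. Of the 21 tested list genes 7 were called lower and 0 higher, with a median ratio of 0.87 where that of all genes was 0.995. They were Samhd1, which limits nucleotides for viruses (64.4 CPM in Sftpc-low cells, 101.7 CPM in the rest), Trim25, a ubiquitin ligase (41.5 and 65.3 CPM), Eif2ak2 (14.7 and 22.3 CPM), Ifi35, Rtp4, Ifit1 and Ifit3 (1.88 and 9.57 CPM). Among the interferon gamma genes Gbp5 was called higher, at 33.5 CPM in Sftpc-low cells and 16.6 CPM in the rest, and Cxcl10, Gbp3 and Vcam1 lower. Among the heavy chains H2-Q6 and H2-Q7 were called lower, and Ifnlr1 was the one receptor gene called lower. No loading gene and no interferon regulatory factor was called in this comparison. The endothelial, epithelial and mesothelial sums given above moved with these genes, and their part in the values was not tested.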

How the data were processed

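Single-cell RNA-seq was deposited by the authors as 1 table of molecular barcode counts, whole numbers for 48440 genes in 460 cells. Per the submitters' processing notes STAR, HTSeq and mm10 were used. Versions, settings and the step to barcode counts are not given in the sources used here. All cells were kept, no doublet caller was run, and 0 columns were identical. Totals ranged from 25029 to 240496 counts per cell. Rgs5-high cells were 203 and other cells 257; Sftpc-low cells were 119 and the rest 341. Fewer than 2 leukocyte markers were counted in 135 Rgs5-high and 180 other cells.

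CPM of a set of cells is a gene's share of the set's counts times 1000000, with exact Poisson intervals. Genes were called at 1.5-fold with at least 5 CPM over the cells compared. Correlations used log1p of counts scaled to 10000 per cell. For thinning to 56586 counts, the 10th percentile, 46 shallower cells were left out, which left 171 Rgs5-high and 243 other cells. GENCODE vM21 gave coordinates and exon lengths and matched 48058 identifiers. Where a symbol occurred more than once (119 symbols), the row with the highest count was used. The named genes are the members, the 3 most abundant and the called genes of each list over all cells, and the 3 genes closest to each member. Other genes, such as the low antiviral genes, Tap2, Psmb9, Erap1 and Fos, were named after their values were seen. The members, lists and rules were chosen with earlier results of these data known, and the motifs after reading the promoters. Alternatives changed the level, depth, scaling (scran 1.30.0, R 4.3.3), split, cells and fold. The steps were tested on simulated data. Tools were matplotlib 3.10.9, pandas 2.3.3, scipy 1.17.1, numpy 2.4.6 and Python 3.11.15. The mouse genotype and 1 signalling gene are not reported here.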

Additional observations from a re-analysis of the deposited data

How the results depend on the processing

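No paired analysis was possible because all cells form 1 group and no result comes from a test. The number of members counted in at least 50% of cells was 7 under every alternative run. The number of pairs at or above 0.2 was 6 to 8 under these alternatives, though not always the same pairs. It was 9 in the cells with Sftpc of at least 30 CPM and 10 in the Rgs5-high cells among them. In Rgs5-high Sftpc-low cells, and in other cells with fewer than 2 leukocyte markers, it was also 9. Between Rgs5-high and other cells, Oasl2 kept a ratio of 1.59 to 2.04 and Irf1 one of 0.52 to 0.64 over the settings run, Ifitm3 at most 1.35, H2-K1 0.64 to 1.04 and H2-D1 0.78 to 1.46. The count of 1 member called higher became 2 with a lower fold limit (Ifitm3 joined, at 1.27) and 0 with a limit of 2-fold. The count of 1 called lower became 0 with a limit of 2-fold and 2 in the 91 cells with fewer than 2 markers of each other lineage, a setting added after seeing the data, where H2-K1 had a ratio of 0.64. For Sftpc-low cells, the count of 0 called higher became 1 in that setting (Oasl2 at 2.32, from 82 cells against 9). The count of 0 called lower became 1 with an Sftpc count of 0 as the limit, and 1 in the cells that were not Rgs5-high (H2-D1 at 0.63). The cause of these changes was not tested beyond the cells and limits named. In Sftpc-low against other cells, Nlrc5 gave no value in the added setting, since its counts were 0 in the 9 cells.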

Other observations

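Low counts limit Nlrc5 and Tap1 (514 counts), and the Nlrc5 value in Sftpc-low Rgs5-high cells rests on 3 counts in 1 cell. The cells form 1 unreplicated group, so differences between animals are not separated from the values given. The table holds no normal fibroblasts, so no level can be called raised or lowered by the tumour.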
